A study of Mus musculus with 16 samples.

Results

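The 6 genes Hal, Asprv1, Casp14, Padi1, Padi3 and Blmh, out of 43432 counted in every library, were followed through sorted cells of the mouse thymus. They encode 5 enzymes that process filaggrin, and histidase, which acts on the histidine released from it. The genes were chosen by name, with their levels (normalised counts) in all 4 sorted populations already known. Their levels and differences are therefore given as a description, with no p-value.

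Filaggrin is made by keratinocytes as a long precursor, profilaggrin, whose repeats are joined by short linkers. The retroviral-like aspartic protease encoded by Asprv1 cuts such linkers, and the peptidylarginine deiminases encoded by Padi1 and Padi3 turn arginines of filaggrin into citrullines, which loosens it from keratin. Caspase-14 (Casp14) and bleomycin hydrolase (Blmh) then take part in breaking filaggrin down to free amino acids, and histidase (Hal) turns the freed histidine into urocanic acid, an absorber of ultraviolet light in the cornified layer. Histidase is also a liver enzyme, and Blmh is made in many tissues. In the thymus, medullary epithelial cells (mTEC) transcribe many genes of other tissues, in part under control of the regulator Aire, and some mTEC take on a keratinocyte-like programme.

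All libraries came from mice of the strain C57BL6.Aire-CreERT2.Ai14, aged 5 to 6 weeks and of mixed sex, given 2 mg tamoxifen and taken 7 days later. In these mice a tamoxifen-dependent Cre is expressed with Aire, and the Ai14 reporter gives a lasting red fluorescence (RFP) in cells in which Cre has acted and in their progeny. Cells that made Aire only outside the time of the tamoxifen pulse stay unlabelled. The 4 populations, all from the gate DAPI-CD45-EPCAM+, combined the label (RFP- or RFP+) with high or low surface MHC class II (MHCIIhi or MHCIIlo), with 4 libraries each, and each library was from 12 pooled mice. There was no untreated group and no mouse without the transgenes, so tamoxifen and both alleles are shared by all populations.

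The libraries held 7.93 to 19.46 M counted reads each. Levels below are CPM, read counts scaled to the library size with TMM factors. One read was worth 0.0464 to 0.122 CPM depending on the library. RFP+ MHCIIlo libraries were made from 19400 to 20500 cells and all others from at least 80500. Reads of mitochondrial ribosomal RNA took 39.2 to 45.9% of RFP- MHCIIlo libraries and 29.3 to 38.5% of the others. RFP+ MHCIIlo replicate 1 stood apart at -15.32 on the third principal component and RFP+ MHCIIlo replicate 4 at 18.78 on the next one, and values without both are given where they differ. The gates held in the RNA: H2-Aa, an MHC class II gene, stood at 4569 to 4903 CPM in RFP- MHCIIhi and 4975 to 5772 CPM in RFP+ MHCIIhi, against 1010 to 1695 CPM in RFP- MHCIIlo and 700.2 to 1118 CPM in RFP+ MHCIIlo. The 10 genes taken as mTEC identity markers summed to 14500 to 16500 CPM in MHCIIhi libraries and 4500 to 6840 CPM in MHCIIlo libraries. In the population means most of each sum was H2-Aa and Cd74, genes of the MHC class II pathway. The sum therefore does not measure identity apart from the gates. In MHCIIlo against MHCIIhi edgeR called 3 of the 10 higher and 5 lower within RFP- cells (69.1% of all tested genes were called). Within RFP+ cells it called 4 higher and 5 lower (55.6%). Aire itself had means of 979 CPM in RFP- MHCIIhi, 587 in RFP+ MHCIIhi, 37.9 in RFP- MHCIIlo and 50.8 in RFP+ MHCIIlo. Epcam was between 321.6 and 621.5 CPM in every library. Ptprc, the gene of the CD45 antigen used to exclude blood cells, was not at 0, with means from 21.1 CPM in RFP- MHCIIlo to 60.0 CPM in RFP- MHCIIhi. In bulk samples such as these, fewer expressing cells and less RNA per cell cannot be told apart.

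The 250 bases before the annotated start are shown for the 4 genes whose levels differed most between populations (RefSeq, GRCm38.p6; all 6 genes had an entry). Hal was lowest in RFP- MHCIIlo, Padi3 was lower in both MHCIIlo populations than in the MHCIIhi ones, and Asprv1 and Casp14 were higher with RFP in both gates. The stretches are chr10:93488518-93488767 on the plus strand for Hal, chr4:140810649-140810898 on the minus strand for Padi3, chr6:86627924-86628173 on the plus strand for Asprv1 and chr10:78718294-78718543 on the minus strand for Casp14, each printed 5' to 3' on the gene's strand. Capitals mark matches on either strand to the letters of 4 motifs. For the factor AP-1 the letters searched were TGANTCA. For the TATA box they were TATAAA. The box of that name was searched as CCAAT, and the grainyhead motif, bound by an epithelial factor family, as AACNGGTT. No match overlapped another.
Hal: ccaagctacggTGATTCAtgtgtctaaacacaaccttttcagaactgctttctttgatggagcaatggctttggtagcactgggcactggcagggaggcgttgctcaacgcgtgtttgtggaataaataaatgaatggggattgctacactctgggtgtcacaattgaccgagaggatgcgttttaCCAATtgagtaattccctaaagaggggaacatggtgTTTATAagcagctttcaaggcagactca
Padi3: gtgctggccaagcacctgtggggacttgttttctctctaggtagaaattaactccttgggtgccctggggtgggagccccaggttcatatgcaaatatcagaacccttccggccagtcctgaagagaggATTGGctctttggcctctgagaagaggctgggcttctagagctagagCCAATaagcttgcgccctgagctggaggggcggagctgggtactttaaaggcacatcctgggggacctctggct
Asprv1: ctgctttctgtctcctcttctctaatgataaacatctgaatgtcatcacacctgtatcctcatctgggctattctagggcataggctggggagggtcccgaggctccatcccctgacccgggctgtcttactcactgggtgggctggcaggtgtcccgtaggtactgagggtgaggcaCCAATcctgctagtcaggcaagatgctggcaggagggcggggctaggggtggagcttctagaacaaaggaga
Casp14: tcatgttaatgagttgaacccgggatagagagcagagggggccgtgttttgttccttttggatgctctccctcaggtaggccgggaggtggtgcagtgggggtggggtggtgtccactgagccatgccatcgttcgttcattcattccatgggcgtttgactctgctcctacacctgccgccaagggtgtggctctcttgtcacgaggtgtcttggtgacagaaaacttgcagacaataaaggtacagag
In Hal the AP-1 letters began 239 bases before the start, the CCAAT letters 64 bases and the TATA letters, read from the other strand, 28 bases. Padi3 held CCAAT letters at 121 bases (on the other strand) and at 74 bases, Asprv1 held them at 72 bases, and Casp14 held none of the searched letters. Padi1 had no match either, and the one match of Blmh, to the AP-1 letters, began 24 bases after its RefSeq start (chr11, position 76945656), which lies inside the GENCODE gene. Over 32851 RefSeq windows of 300 bases (250 before and 50 after a start), the AP-1 letters occurred in 7.81%, the TATA letters in 13.6%, the CCAAT letters in 37.4% and the grainyhead letters in 2.09%. The same windows of the 6 genes held 3 CpG in Padi1, 4 in Asprv1, 4 in Padi3, 7 in Hal, 9 in Casp14 and 21 in Blmh, against a median of 7 over all windows. A match or its absence describes these letters and was not tested against the levels.

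**Figure D1:**
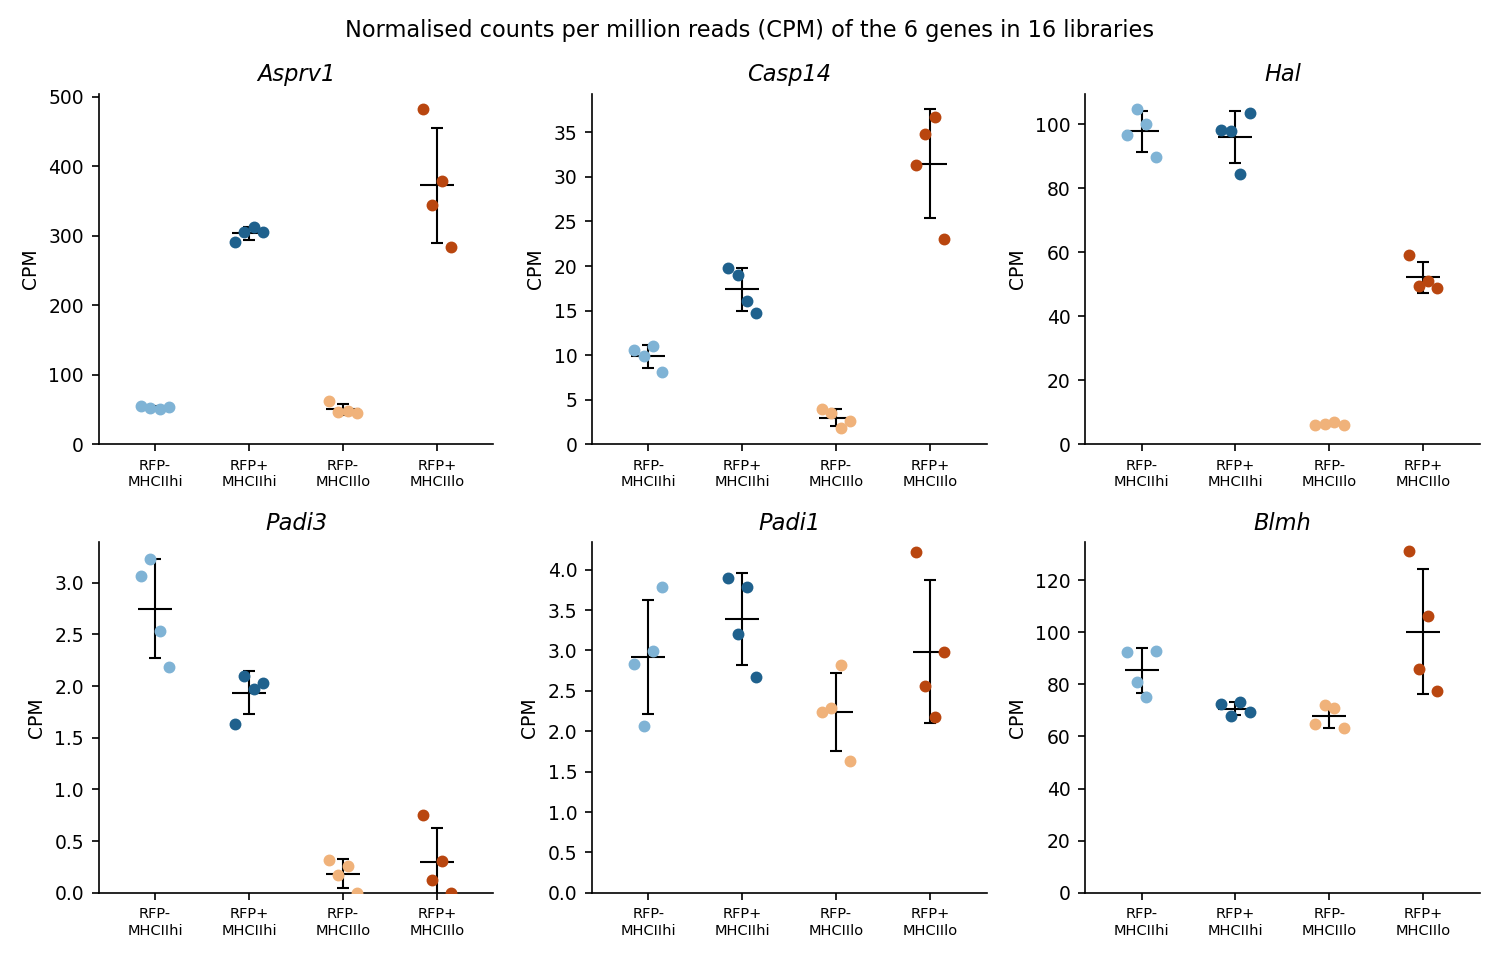
Normalised read counts (CPM, linear axis from 0) of the 6 genes in 16 libraries; points are libraries, horizontal lines the mean and whiskers the SD of the 4 libraries of a population. Asprv1 and Casp14 are higher in both RFP+ populations than in the RFP- population of the same gate, Hal is near 6 CPM only in RFP- MHCIIlo, and Padi3 is under 1 CPM in both MHCIIlo populations.

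Asprv1, the profilaggrin linker protease, was higher with RFP in both gates, as was Casp14. The gene (ENSMUSG00000033508, chr6:86628164-86629710, plus strand, 1 exon, GRCm38) stood at 54.79, 52.59, 50.34 and 54.27 CPM in the RFP- MHCIIhi libraries, or 53.0 ± 2.00 (SD, n = 4). The RFP+ MHCIIhi libraries held 290.8, 305.1, 312.3 and 304.6 CPM, or 303 ± 8.97. RFP- MHCIIlo held 61.76, 46.75, 47.6 and 44.9 CPM, or 50.25 ± 7.75, and RFP+ MHCIIlo 482.4, 343.5, 378.6 and 284.3 CPM, or 372 ± 83.2 (SD, n = 4 each). Every RFP+ library thus lay above every RFP- library, and within each label the 2 gates overlapped. The log2 difference between RFP+ and RFP- cells was 2.52 (SE 0.12) among MHCIIhi cells, a 5.72-fold difference, and 2.89 (SE 0.13), or 7.42-fold, among MHCIIlo cells. Between the gates it was 0.30 (SE 0.11) within RFP+ cells and -0.08 (SE 0.12, 95% interval -0.34 to 0.18) within RFP- cells. Per kb of exon Asprv1 had the highest level of the 6 genes in each population, at 34.3 ± 1.29 CPM per kb in RFP- MHCIIhi and 240.6 ± 53.8 CPM per kb in RFP+ MHCIIlo. Its share of the summed per-kb level of the 6 genes was 47.6% in RFP- MHCIIhi, 69.1% in RFP- MHCIIlo, 83.8% in RFP+ MHCIIhi and 85.6% in RFP+ MHCIIlo.

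Padi3, a deiminase of hair follicle and upper epidermis, was a gene of the MHCIIhi populations here. It (ENSMUSG00000025328, chr4:140785365-140810648, minus strand, 16 exons) stood at 3.06, 3.23, 2.53 and 2.18 CPM in RFP- MHCIIhi and at 1.64, 2.10, 1.98 and 2.04 CPM in RFP+ MHCIIhi, or 2.75 ± 0.481 and 1.94 ± 0.206 (SD, n = 4 each). RFP- MHCIIlo libraries held 3, 2, 3 and 0 reads of it, or 0.186 ± 0.138 CPM, and RFP+ MHCIIlo libraries 7, 1, 3 and 0 reads, or 0.298 ± 0.332 CPM. All MHCIIhi libraries lay above all MHCIIlo libraries, and those of RFP- MHCIIhi above those of RFP+ MHCIIhi. A count of 0 allows a level of up to 0.258 CPM in RFP- MHCIIlo replicate 4 and 0.249 CPM in RFP+ MHCIIlo replicate 4 (3 counts, counting error only). Between the gates the log2 difference was -3.87 (SE 0.53) within RFP- cells and -2.73 (SE 0.52) within RFP+ cells, and the latter was -3.76 without RFP+ MHCIIlo replicate 1, which held 7 of the 11 reads of its population. Between the labels it was -0.50 (SE 0.36, 95% interval -1.28 to 0.28) among MHCIIhi cells. Among MHCIIlo cells it was 0.63 (SE 0.78, 95% interval -1.06 to 2.32), with -0.40 without that replicate, so neither the direction nor the size could be read at this depth.

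Padi1, a deiminase of the epidermis, was low and nearly level across the populations. The gene (ENSMUSG00000025329, chr4:140812983-140845778, minus strand, 16 exons) ranged from 1.63 CPM in an RFP- MHCIIlo library to 4.21 CPM in an RFP+ MHCIIlo library, on 627 reads over all libraries. Its means were 3.39 ± 0.569 CPM in RFP+ MHCIIhi, 2.99 ± 0.883 in RFP+ MHCIIlo, 2.92 ± 0.707 in RFP- MHCIIhi and 2.24 ± 0.483 in RFP- MHCIIlo (SD, n = 4 each). Neighbours in this order overlapped at every step, and the highest mean was 1.51 times the lowest. The log2 difference between the labels was 0.41 (SE 0.27, 95% interval -0.18 to 1.00) among MHCIIlo cells and 0.21 (SE 0.24, 95% interval -0.31 to 0.73) among MHCIIhi cells. That between the gates was -0.18 (SE 0.25, 95% interval -0.73 to 0.37) within RFP+ cells, but -0.53 without RFP+ MHCIIlo replicates 1 and 4. A transcript on the opposite strand, Gm13032, overlaps Padi1 exons and had 41 reads in all libraries. Whether the counting used strand is not given, so reads of the pair cannot be told apart.

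The 5 peptidylarginine deiminase genes lie side by side within 225.2 kb of chromosome 4 (chr4:140727355-140952586), in the order Padi6, Padi4, Padi3, Padi1 and Padi2. Padi3 and Padi1 are 2.3 kb apart. Padi4, the deiminase of granulocyte nuclei, and Padi6, that of oocytes, had lower means in MHCIIlo cells than in MHCIIhi cells, while Padi2, a widely made deiminase, was closer to level. Padi6 was named after its values were seen, so its levels are a description, on 12 reads in each MHCIIlo population. Padi4 stood at 4.95 ± 0.803 CPM in RFP- MHCIIhi, 4.15 ± 0.389 in RFP+ MHCIIhi, 0.720 ± 0.204 in RFP- MHCIIlo and 1.43 ± 0.504 in RFP+ MHCIIlo. Padi6 stood at 2.83 ± 0.592, 2.32 ± 0.597, 0.267 ± 0.181 and 0.300 ± 0.234 CPM in the same order, and Padi2 at 23.3 ± 2.22, 21.2 ± 2.66, 16.4 ± 3.15 and 22.02 ± 4.70 CPM (SD, n = 4 each). Within RFP- cells Padi4 and Padi2 were lower in the MHCIIlo gate by edgeR's quasi-likelihood test with Benjamini-Hochberg adjustment at 0.05, which called 69.1% of all tested genes there (35.6% lower). The log2 differences were -2.76 for Padi4 (SE 0.28, adjusted p = 6.8e-09) and -0.51 for Padi2 (SE 0.14, adjusted p = 0.0034). Within RFP+ cells Padi4 was lower in the MHCIIlo gate (-1.496, SE 0.26, adjusted p = 3.2e-05), and Padi2 was not called (0.05, SE 0.14, adjusted p = 0.78).

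**Figure D2:**
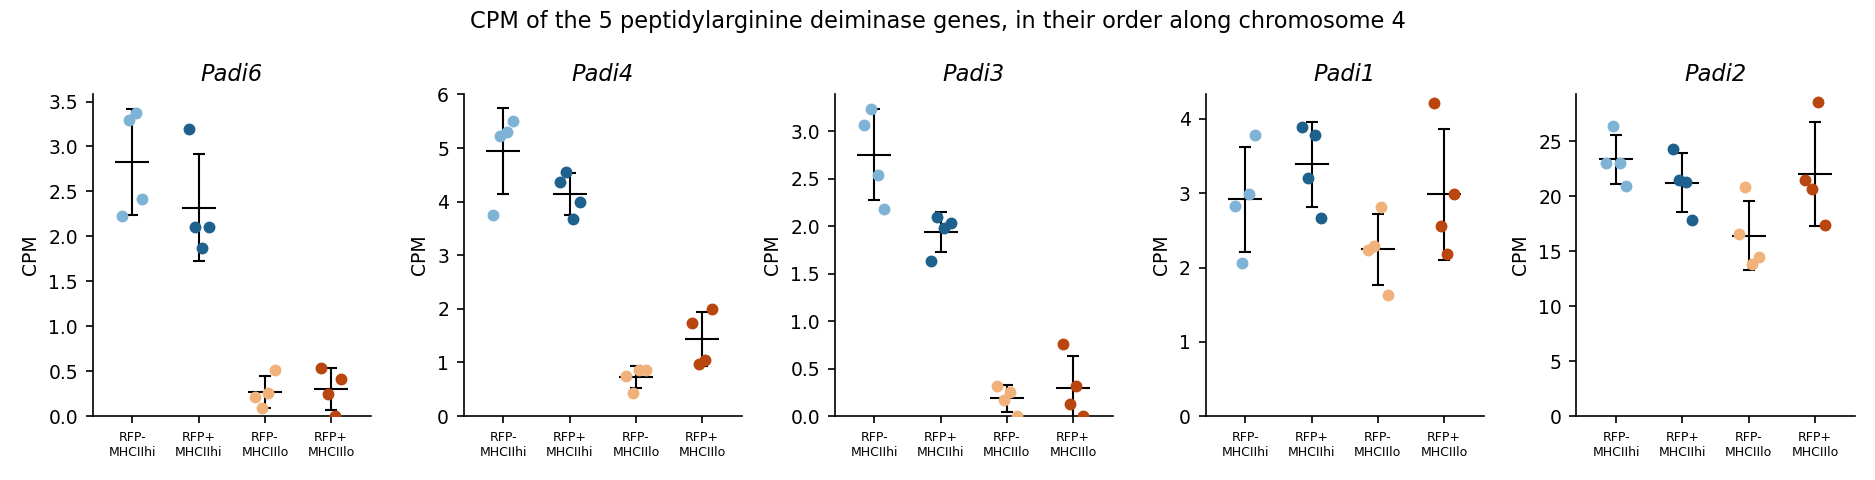
CPM (linear axes from 0, one scale per gene) of the 5 peptidylarginine deiminase genes in their order along chromosome 4; points are libraries, lines the mean and whiskers the SD of 4 libraries. Padi6, Padi4 and Padi3 sit higher in both MHCIIhi populations, while the populations of Padi1 and Padi2 lie closer together.

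Among MHCIIlo cells, 2 of the 3 other deiminases were higher with RFP and 0 lower, where 51.6% of all tested genes were called and 28.9% were higher. Padi4 was higher by 1.02 (SE 0.33, adjusted p = 0.013) and Padi2 by 0.42 (SE 0.15, adjusted p = 0.021). Neither call was firm: that of Padi4 ended with limma-voom (adjusted p = 0.055), with the 2 groups fitted alone (0.075), without RFP- MHCIIlo replicate 2 (0.053), without RFP+ MHCIIlo replicate 4 (0.071) and without RFP+ MHCIIlo replicates 1 and 4 (0.36), over a range of 0.0088 to 0.36. That of Padi2 ended with the 2 groups fitted alone (adjusted p = 0.074) and without RFP- MHCIIlo replicate 3 (0.078) or 4 (0.066) or RFP+ MHCIIlo replicate 3 (0.20), over a range of 0.0041 to 0.20.

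Casp14, the caspase of cornifying keratinocytes, had a step at every population. The gene (ENSMUSG00000005355, chr10:78711991-78718294, minus strand, 7 exons) stood at 31.33, 34.86, 36.77 and 23.05 CPM in RFP+ MHCIIlo and at 19.8, 19.01, 16.02 and 14.74 CPM in RFP+ MHCIIhi, or 31.5 ± 6.07 and 17.4 ± 2.41. RFP- MHCIIhi held 10.62, 9.87, 10.97 and 8.10 CPM, or 9.89 ± 1.28, and RFP- MHCIIlo 3.93, 3.56, 1.79 and 2.58 CPM, or 2.97 ± 0.970 (SD, n = 4 each). No 2 neighbours in this order overlapped, and the highest mean was 10.6 times the lowest. The log2 difference with RFP was 3.42 (SE 0.20), or 10.7-fold, among MHCIIlo cells and 0.81 (SE 0.16), or 1.76-fold, among MHCIIhi cells. Between the gates the sign depended on the label: 0.85 (SE 0.16) within RFP+ cells and -1.75 (SE 0.20) within RFP- cells. In Asprv1, by contrast, the RFP- populations of the gates overlapped.

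The 8 other caspases described, which act in cell death and inflammation, are given for comparison. Among MHCIIlo cells 4 were higher and 1 lower with RFP, a share of calls near the 51.6% of all tested genes. Casp1, the inflammasome caspase, stood at 43.7 ± 1.12 CPM in RFP- MHCIIlo and 80.4 ± 5.68 in RFP+ MHCIIlo (log2 0.88, SE 0.08, adjusted p = 3.4e-09). Casp12, a caspase linked to endoplasmic reticulum stress, was lower, at 6.10 ± 1.52 against 23.5 ± 5.93 CPM (-1.94, SE 0.20, adjusted p = 1.4e-08). Among MHCIIhi cells 4 of the 8 were higher and 1 lower with RFP, where 45% of all tested genes were called, with Casp1 at 120.9 ± 11.6 against 79.7 ± 3.76 CPM (0.60, SE 0.08, adjusted p = 8.1e-07).

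Blmh, the broadly made peptidase, varied least beside Padi1. The gene (ENSMUSG00000020840, chr11:76924809-76987379, plus strand, 12 exons) stood at 92.5, 80.99, 75.13 and 92.63 CPM in RFP- MHCIIhi and at 72.26, 67.66, 73.09 and 69.26 CPM in RFP+ MHCIIhi, or 85.3 ± 8.71 and 70.6 ± 2.54. RFP- MHCIIlo held 64.73, 71.95, 70.88 and 63.31 CPM, or 67.7 ± 4.33, and RFP+ MHCIIlo 131.2, 85.93, 106.3 and 77.53 CPM, or 100.2 ± 23.9 (SD, n = 4 each). RFP+ libraries lay above RFP- libraries in the MHCIIlo gate and below them in the MHCIIhi gate, both without overlap. The log2 differences were small, at 0.56 (SE 0.12), or 1.48-fold, among MHCIIlo cells and -0.28 (SE 0.12) among MHCIIhi cells. Between the gates they were 0.51 (SE 0.12) within RFP+ cells and -0.33 (SE 0.12) within RFP- cells.

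Hal, the histidase gene, separated 1 population from the other 3. It (ENSMUSG00000020017, chr10:93488768-93519304, plus strand, 20 exons) stood at 96.58, 104.6, 99.92 and 89.64 CPM in RFP- MHCIIhi and at 98.29, 97.81, 84.5 and 103.5 CPM in RFP+ MHCIIhi, or 97.7 ± 6.29 and 96.0 ± 8.10. RFP+ MHCIIlo held 59.1, 49.49, 51.11 and 48.76 CPM, or 52.1 ± 4.76, and RFP- MHCIIlo 5.95, 6.28, 6.91 and 5.94 CPM, or 6.27 ± 0.455 (SD, n = 4 each). The MHCIIhi populations overlapped each other, RFP+ MHCIIlo lay below both, and RFP- MHCIIlo lay lowest with no overlap. The log2 difference with RFP was 3.05 (SE 0.10), or 8.28-fold, among MHCIIlo cells and -0.03 (SE 0.08, 95% interval -0.20 to 0.15) among MHCIIhi cells. Between the gates it was -3.96 (SE 0.10) within RFP- cells, 15.5-fold lower in MHCIIlo, and -0.88 (SE 0.08), or 1.84-fold lower, within RFP+ cells. Hal and Padi3 share the low level in RFP- MHCIIlo, but in RFP+ MHCIIlo Hal was at 52.1 CPM while Padi3 had 11 reads in sum.

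Of the enzymes that act after histidase, Uroc1 and Amdhd1 were also lower in MHCIIlo cells within both labels, as was the competing enzyme histidine decarboxylase (Hdc). Ftcd, the last enzyme of the route to glutamate, was not called between the gates within RFP+ cells (-0.35, SE 0.62, adjusted p = 0.65), and its call within RFP- cells (-1.87, SE 0.80, adjusted p = 0.042) was lost in 8 of 22 alternatives (range 0.012 to 0.12). Amdhd1, imidazolonepropionase, which follows urocanase, is annotated beside Hal on the other strand (chr10:93523338-93540033). It stood at 14.1 ± 1.03 CPM in RFP- MHCIIhi, 10.6 ± 1.34 in RFP+ MHCIIhi, 0.586 ± 0.225 in RFP- MHCIIlo and 1.66 ± 1.02 in RFP+ MHCIIlo. Uroc1, urocanase, stood at 5.01 ± 0.680, 4.46 ± 0.820, 0.426 ± 0.302 and 1.08 ± 0.755 CPM in the same order, and Hdc, which makes histamine from histidine, at 602.7 ± 37.6, 343 ± 19.0, 27.5 ± 8.23 and 88.9 ± 6.28 CPM (SD, n = 4 each). Within RFP- cells the MHCIIlo gate was lower by 4.57 for Amdhd1 (log2 -4.57, SE 0.31, adjusted p = 5e-12), with -3.59 for Uroc1 (SE 0.40, adjusted p = 2.9e-08) and -4.45 for Hdc (SE 0.14, adjusted p = 2.6e-17). Within RFP+ cells the values were -2.70 (SE 0.27, adjusted p = 1e-08), -1.95 (SE 0.34, adjusted p = 4e-05) and -1.95 (SE 0.12, adjusted p = 8.6e-12).

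Of the 6 genes of histidine and pyrrolidone metabolism 5 were higher and 1 lower with RFP among MHCIIlo cells (51.6% of all tested genes were called, 28.9% higher and 22.7% lower), and Ftcd, Uroc1 and Amdhd1 lost the call under alternatives. Hdc was higher by 1.69 (SE 0.13, adjusted p = 1.7e-10), with Amdhd1 at 1.46 (SE 0.41, adjusted p = 0.0044), Uroc1 at 1.47 (SE 0.49, adjusted p = 0.015) and Ftcd at 2.03 (SE 0.83, adjusted p = 0.045) on 8 reads in RFP- MHCIIlo and 31 in RFP+ MHCIIlo. Limma-voom did not call Amdhd1 (adjusted p = 0.056, range 1.9e-05 to 0.056) or Uroc1 (0.059). Uroc1 was not called without RFP+ MHCIIlo replicate 4 (log2 0.91, adjusted p = 0.15), without RFP- MHCIIlo replicate 4 (0.055) or without RFP+ MHCIIlo replicates 1 and 4 (0.16, range 0.0043 to 0.16), and Ftcd lost its call in 15 of 23 alternatives (range 0.0074 to 0.32). Among MHCIIhi cells Hdc was lower with RFP (-0.81, SE 0.12, adjusted p = 5e-06) where the Hal libraries overlapped.

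**Figure D3:**
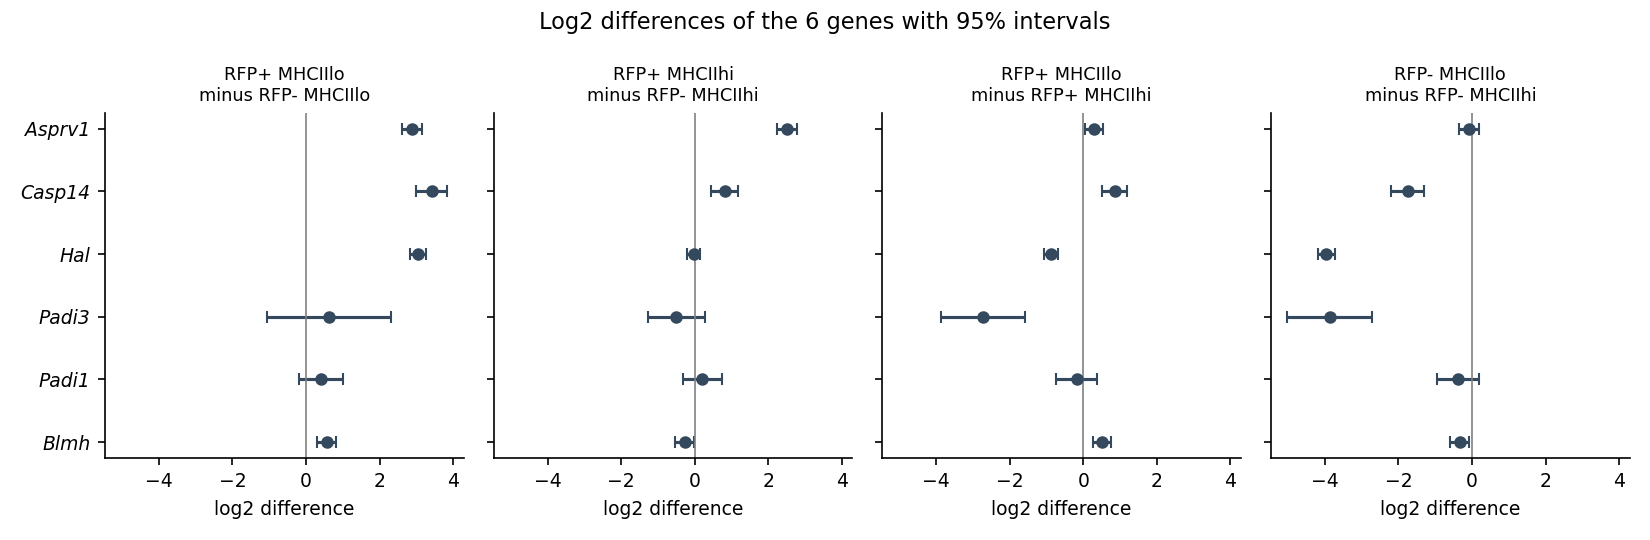
Log2 differences of the 6 genes in the 4 comparisons of 2 populations, as points with 95% intervals from the fit over all 16 libraries; the vertical line marks no difference. Asprv1, Casp14 and Hal lie near 3 in the MHCIIlo comparison of the labels, and Hal and Padi3 near -4 in the comparison of the gates within RFP- cells.

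Each of the 6 genes passed the filter on low counts. With RFP among MHCIIlo cells, 4 of the 6 had every library higher, 0 every library lower and 2 overlapped, where 39.5% of the 19617 tested genes did not overlap (21.5% higher, 18% lower). Among MHCIIhi cells 2 were higher, 2 lower and 2 overlapped, against 50% of all tested genes without overlap (25% higher, 25% lower). For RFP+ MHCIIlo against RFP+ MHCIIhi the count was 2 higher and 2 lower, against 47% (22.5% and 24.5%), and for RFP- MHCIIlo against RFP- MHCIIhi it was 0 higher and 4 lower, against 65.3% (31.2% and 34.1%). The median log2 difference of the 6 genes in these comparisons, in this order, was 1.76, 0.09, 0.06 and -1.06, beside 0.07, -0.02, 0.01 and -0.0041 over all tested genes. The genes were chosen with these values known, the comparisons share populations, and nothing is read from the counts.

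The excess of the label difference in the MHCIIlo gate over that among MHCIIhi cells was 3.08 (SE 0.13) for Hal, 2.60 (SE 0.26) for Casp14 and 0.84 (SE 0.16) for Blmh. It was 0.38 (SE 0.17) for Asprv1, 1.13 (SE 0.86, 95% interval -0.75 to 3.01) for Padi3 and 0.20 (SE 0.36, 95% interval -0.59 to 0.98) for Padi1. Without RFP+ MHCIIlo replicates 1 and 4 it was 3.02 for Hal, 2.79 for Casp14, 0.78 for Blmh, 0.33 for Asprv1 and -0.14 for Padi1, and without replicate 1 alone 0.10 for Padi3. With mitochondrial ribosomal RNA left out before scaling, the MHCIIlo label differences were 2.99 for Hal, 2.83 for Asprv1, 3.35 for Casp14 and 0.51 for Blmh, as against 3.05, 2.89, 3.42 and 0.56.

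**Figure D4:**
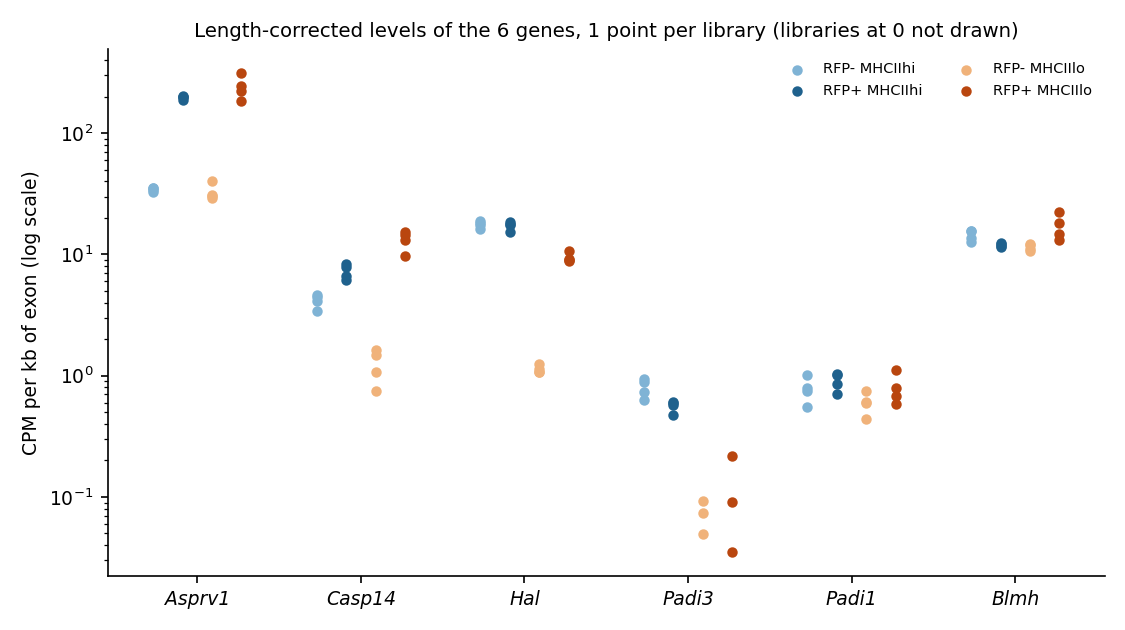
CPM per kb of exon (log axis) of the 6 genes, 1 point per library, coloured by population; libraries at 0, which occur for Padi3, are not drawn. Asprv1 is the highest gene in each population, Blmh lies within a narrow band, and Hal drops to near 1 CPM per kb only in RFP- MHCIIlo.

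By exon length, the order of the 6 genes changed with the population below Asprv1. Hal was second in both MHCIIhi populations, at 17.6 ± 1.13 CPM per kb in RFP- MHCIIhi and 17.3 ± 1.46 in RFP+ MHCIIhi. Blmh was second in both MHCIIlo populations, at 11.5 ± 0.735 CPM per kb in RFP- MHCIIlo and 17.0 ± 4.06 in RFP+ MHCIIlo, followed by Casp14 at 1.24 ± 0.405 and 13.2 ± 2.54 (SD, n = 4 each). In RFP- MHCIIlo the libraries of Casp14 overlapped those of Hal, which stood at 1.13 ± 0.0820 CPM per kb. In RFP+ MHCIIlo the libraries of Casp14 overlapped both those of Blmh and those of Hal, which stood at 9.39 ± 0.858 CPM per kb. Padi1 and Padi3 were under 1 CPM per kb on average in each population. Over the 16 libraries, log2 CPM of Asprv1 and Casp14 had a Pearson r of 0.85, Hal and Casp14 0.75, Hal and Padi3 0.73, and Asprv1 and Padi3 -0.02. The Spearman rank correlations of the same pairs were 0.88, 0.28, 0.84 and 0.01, so that of Hal and Casp14 was much weaker by rank. These values describe 4 populations of 4 libraries and rest mainly on the population means.

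The other genes of the pathway were taken in 7 lists by role, 40 genes in all, each of which passed the filter. With RFP among MHCIIlo cells 30 were higher and 4 lower (edgeR called 51.6% of all tested genes, 28.9% higher and 22.7% lower), with a median log2 difference of 0.92 beside 0.07 over all tested genes. Over the alternatives the number higher ranged from 20 to 30. With RFP among MHCIIhi cells 23 were higher and 3 lower (45% of all tested genes, 23.8% and 21.2%), with a median of 0.54 beside -0.02. For RFP+ MHCIIlo against RFP+ MHCIIhi 16 were higher and 16 lower (55.6%, 27.5% and 28.1%), and for RFP- MHCIIlo against RFP- MHCIIhi 14 were higher and 20 lower (69.1%, 33.5% and 35.6%). The label difference was larger in the MHCIIlo gate for 17 and smaller for 9 (34.1% of all tested genes, 17.5% and 16.6%). The lists too were drawn up with earlier results of these libraries known. Flg2, Hrnr, Klk5, Klk7, Cst6, Casp1, Casp12, Ftcd, Hdc, Tgm3 and Tgm5 were named for a large called difference with RFP among MHCIIlo cells. Their values and p-values for that comparison, here and above, are therefore a description.

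All 7 substrates, filaggrin and its S100 fused-type relatives, were higher with RFP among MHCIIlo cells (28.9% of all tested genes). The libraries of the relative Tchhl1 overlapped there (adjusted p = 0.023 by edgeR). With RFP among MHCIIhi cells 6 of the 7 were higher and 0 lower (23.8% and 21.2%). Flg, filaggrin itself, had few counted reads: its libraries held between 0.319 and 1.03 CPM in RFP- MHCIIlo and between 2.32 and 3.29 CPM in RFP+ MHCIIlo. Among MHCIIhi cells they held 0.344 to 0.903 CPM without RFP and 1.25 to 3.09 CPM with it. Its log2 difference with RFP was 2.20 (SE 0.39, adjusted p = 5.2e-05) among MHCIIlo cells and 1.70 (SE 0.36, adjusted p = 0.00044) among MHCIIhi cells, without overlap in either gate. Hrnr, hornerin, went from 9.66 ± 1.82 CPM in RFP- MHCIIlo to 112 ± 27.6 in RFP+ MHCIIlo (3.54, SE 0.16, adjusted p = 1.4e-14), and Flg2, filaggrin 2, from 0.660 ± 0.354 to 9.37 ± 4.02 CPM (3.78, SE 0.36, adjusted p = 5.4e-09). Their repeats are alike, so reads may be shared among them. How reads that fit more than 1 place were counted is not given. The levels of these genes, also per kb, may therefore be too low. Per kb of exon (18829 exon bases), Flg had a mean of 0.0342 CPM per kb in RFP- MHCIIhi, 0.0326 in RFP- MHCIIlo, 0.112 in RFP+ MHCIIhi and 0.155 in RFP+ MHCIIlo, below Casp14, Hal, Blmh and Asprv1 in each population.

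Of 8 proteases that act before or beside these enzymes, 5 were higher and 2 lower with RFP among MHCIIlo cells (28.9% and 22.7% of all tested genes). The 2 lower were Pcsk6 (log2 -1.32, SE 0.14), at 7.72 ± 0.847 CPM in RFP+ MHCIIlo against 19.3 ± 2.02 in RFP- MHCIIlo, and Furin (-0.24, SE 0.09). Pcsk6 and Furin were named after their values were seen, so these values are a description. Klk7, a kallikrein that sheds corneocytes, stood at 11.9 ± 4.90 CPM in RFP- MHCIIlo and 125 ± 22.4 in RFP+ MHCIIlo (3.41, SE 0.17, adjusted p = 1.4e-13), and Klk5, its activator, at 0.487 ± 0.337 and 5.33 ± 3.19 CPM (3.39, SE 0.42, adjusted p = 3.3e-07). Among MHCIIhi cells Klk5 was not called with RFP, at 20.1 ± 2.83 CPM in RFP- MHCIIhi and 16.4 ± 1.81 in RFP+ MHCIIhi (-0.30, SE 0.22, adjusted p = 0.29). St14, matriptase, a protease needed for profilaggrin processing, was higher by only 0.36 (SE 0.10, adjusted p = 0.0047). Kallikreins are a family of similar genes that can share reads.

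Of 5 protease inhibitors 4 were higher and 0 lower with RFP among MHCIIlo cells (28.9% and 22.7% of all tested genes), with a median log2 difference of 0.26. The 2 described next had the largest differences of the 5. Spink5, the inhibitor of Klk5 and Klk7, went from 202 ± 39.0 CPM in RFP- MHCIIlo to 923 ± 109.8 in RFP+ MHCIIlo (2.19, SE 0.15, adjusted p = 3.5e-11), and from 44.5 ± 10.96 to 436.5 ± 65.8 CPM among MHCIIhi cells (3.29, SE 0.16, adjusted p = 1.5e-13). Cst6, cystatin M/E, was higher with RFP by 2.72 (SE 0.12, adjusted p = 7.5e-15) and 1.62 (SE 0.11, adjusted p = 2.3e-11) in the respective gates. All 3 epidermal transglutaminases, which cross-link the cornified envelope, were higher with RFP in both gates. Of all tested genes 28.9% were higher among MHCIIlo cells and 23.8% among MHCIIhi cells. Tgm3 stood at 3.65 ± 1.18 CPM in RFP- MHCIIlo, 25.5 ± 5.04 in RFP+ MHCIIlo, 18.3 ± 2.95 in RFP- MHCIIhi and 46.9 ± 6.90 in RFP+ MHCIIhi, and Tgm5 at 2.53 ± 0.529, 16.9 ± 4.24, 16.7 ± 1.43 and 36.05 ± 1.495 CPM (SD, n = 4 each).

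**Figure D5:**
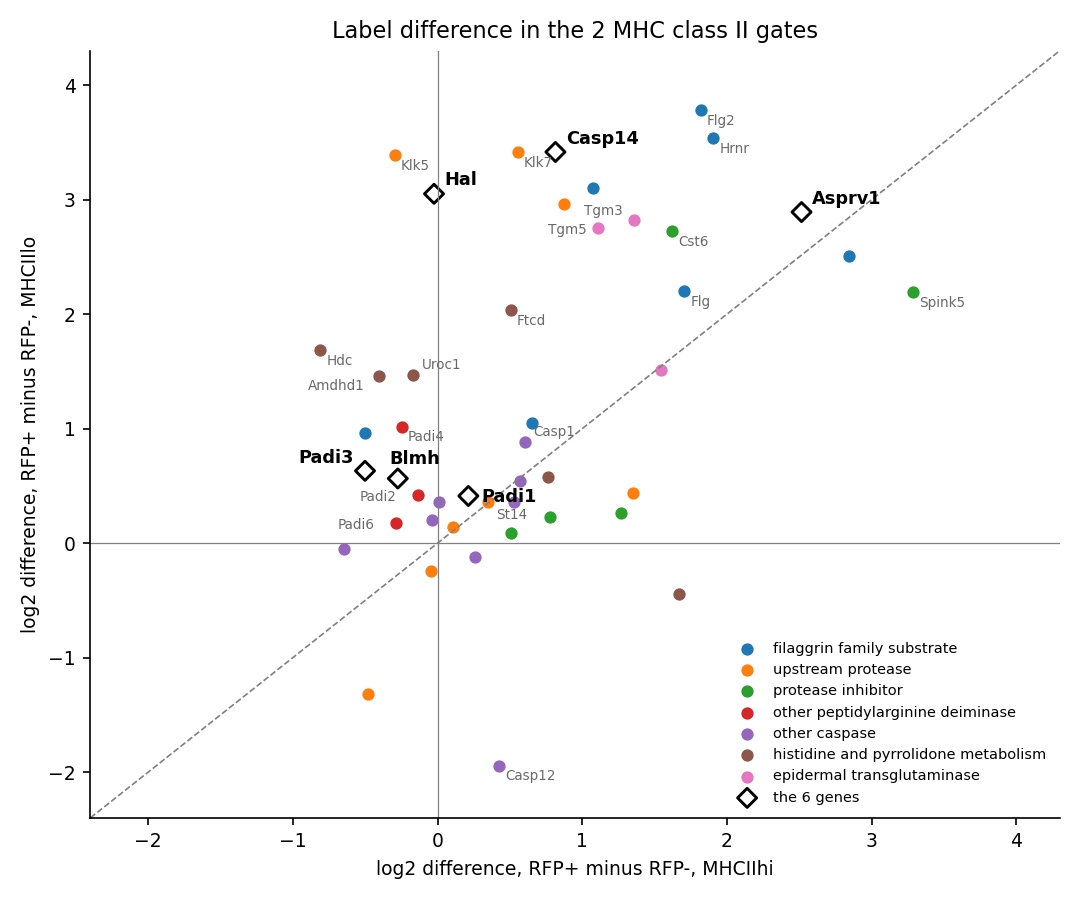
Log2 difference between RFP+ and RFP- cells in the MHCIIhi gate (horizontal) and in the MHCIIlo gate (vertical) for the 6 genes (open diamonds) and the 40 other pathway genes (points coloured by list); the dashed line marks equal differences. Asprv1 lies close to the line, whereas Hal, Casp14, Klk5 and Klk7 lie far above it.

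Markers of other cell types moved with these comparisons. The summed level of 10 markers of cornified keratinocytes was 388 to 441 CPM in RFP- MHCIIhi, 353 to 480 in RFP- MHCIIlo, 868 to 1150 in RFP+ MHCIIhi and 2210 to 3090 in RFP+ MHCIIlo. With RFP all 10 were higher among MHCIIlo cells (28.9% of all tested genes). Among MHCIIhi cells 9 were higher and 1 lower (23.8% and 21.2%). The 8 hepatocyte markers summed to 191 to 233, 23.5 to 35.3, 279 to 296 and 142 to 199 CPM in the same order, with Serpina1a at no read in both MHCIIlo populations. Within RFP- cells all 7 tested hepatocyte markers were lower in MHCIIlo (35.6% of all tested genes). Within RFP+ cells 6 of 7 were lower in MHCIIlo and 0 higher (28.1% and 27.5%). With RFP 6 of 7 were higher among MHCIIlo cells (28.9%), while among MHCIIhi cells 2 were higher and 2 lower (23.8% and 21.2%). The part of either cell type's programme in the levels of Hal, Asprv1 or Casp14 was not tested.

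Markers of blood cells differed between the populations in more than 1 way. The 8 granulocyte and macrophage markers summed to 811 to 870 CPM in RFP- MHCIIhi, 121 to 158 in RFP- MHCIIlo, 834 to 895 in RFP+ MHCIIhi and 255 to 385 in RFP+ MHCIIlo, and the 9 thymocyte markers to 298 to 653, 39.4 to 62.3, 88.7 to 141 and 52.6 to 128 CPM. The 5 mast cell markers summed to 87.1 to 97.6, 65.6 to 77.3, 92.1 to 101 and 148 to 199 CPM, most of it Kit, and the mast cell protease gene Cpa3 stood at 1.23 ± 0.250 CPM in RFP- MHCIIhi and 0.133 ± 0.146 in RFP- MHCIIlo, and at 1.03 ± 0.294 in RFP+ MHCIIhi and 0.617 ± 0.495 in RFP+ MHCIIlo, where the gates overlapped. The granulocyte and macrophage sums were lower in the MHCIIlo gate within both labels, and the thymocyte sums of the gates overlapped within RFP+ cells. The mast cell sum was highest in RFP+ MHCIIlo through Kit, at 166 ± 22.8 CPM there. With RFP among MHCIIlo cells all 5 mast cell markers were called higher. So were 6 of the 8 granulocyte and macrophage and 5 of the 9 thymocyte markers, with 0 lower in each list (28.9% and 22.7% of all tested genes). Among MHCIIhi cells the lists had, in this order, 1, 3 and 0 higher and 0, 3 and 9 lower with RFP (23.8% and 21.2%). Within RFP+ cells edgeR called 1 mast cell marker higher and 3 lower in MHCIIlo (27.5% and 28.1% of all tested genes). Within RFP- cells 0 were higher and 4 lower (33.5% and 35.6%). Granulocyte and macrophage markers split 1 higher (Itgam) and 6 lower within RFP+ cells, and 0 and 7 within RFP- cells. Ptprc was at 36.4 ± 6.00 CPM in RFP+ MHCIIlo and 21.9 ± 3.26 in RFP+ MHCIIhi. The part of these blood cell markers in the levels of Padi3, Padi4 and Hdc was not tested. Cortical epithelial markers (6 genes) summed to 1440 to 2400 CPM in RFP- MHCIIhi, 301 to 464 in RFP- MHCIIlo, 604 to 886 in RFP+ MHCIIhi and 139 to 234 in RFP+ MHCIIlo. Mesenchymal markers (6 genes) summed to 129 to 135, 420 to 960, 93.6 to 108 and 48.3 to 159 CPM, and endothelial markers (5 genes) to 18.3 to 22.6, 32.3 to 55.6, 12.9 to 16.1 and 4.43 to 8.04 CPM. Stromal markers were thus highest in RFP- MHCIIlo, where Hal and Casp14 were lowest, and their part in these low levels was not tested.

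The genes most like each of the 6 were sought by Pearson correlation of log2 CPM over the 16 libraries among 13220 genes, with predicted genes passed over. For Hal these were Cfi, Rgs20 and Slc36a2 (r = 0.99 each), all lowest in RFP- MHCIIlo: Cfi, complement factor I, a liver gene, had means of 6.39 CPM in RFP- MHCIIhi, 6.60 in RFP+ MHCIIhi, 1.30 in RFP- MHCIIlo and 4.504 in RFP+ MHCIIlo. For Asprv1 they were Krt78, a keratin gene, Nectin4, a cell adhesion gene, and Smox, spermine oxidase (r = 0.99 each), and Krt78 had means of 8.57, 45.5, 9.95 and 66.9 CPM in that order. For Casp14 they were Krt77, a keratin gene (r = 0.98), Faah, an amide hydrolase gene (0.98), and Them5 (0.97), with Krt77 at 61.9, 132, 17.0 and 259.9 CPM. For Padi3 they were Ghrh, growth hormone releasing hormone, Fsd2 and Neb, the muscle gene nebulin (r = 0.97 each), with Ghrh at 10.9, 7.61, 0.181 and 0.392 CPM. Padi1 and Blmh had no gene as close: their highest r was 0.75 (Plekhf2) and 0.88 (Wdr25). By rank correlation the first 3 were largely other genes, with 1 of 3 shared for Asprv1, Casp14, Padi1 and Padi3 and 0 for Hal and Blmh.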

How the data were processed

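RNA was sequenced from 16 libraries of sorted thymic epithelial cells, 4 for each of 4 populations. The authors deposited raw counts for 43432 Ensembl genes, made with STAR on GRCm38, per the submitters' processing notes, which also name DESeq2. The versions, the counter, its annotation and its use of strand were not given in the sources used here. Per the labels' protocols, cells were sorted into lysis buffer, poly(A) RNA was isolated and amplified by NuGen Ovation V2 before Nextera XT library preparation. Amplified reads without molecular identifiers are not independent molecules.

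Symbols, coordinates and exon lengths came from GENCODE M21 (42462 identifiers with a symbol, and the others held 0.11% of reads). Exon lengths were merged over all annotated transcripts of a gene. They can exceed the length of any single transcript, which lowers a level per kb and affects the order and shares of genes by that measure. The filterByExpr step (count of at least 10, total of at least 15) left 19617 genes. Counts were scaled by TMM and fitted with edgeR 4.0.16 in R 4.3.3 by the quasi-likelihood test, with 1 mean per population over all 16 libraries. Benjamini-Hochberg adjustment ran over all tested genes in each of 5 comparisons, with calls at 0.05. Alternatives were DESeq2 1.42.0 (test and size factors), limma-voom (limma 3.58.1), no filter, 2 groups alone, no mitochondrial ribosomal RNA, a replicate block and each library left out. Leaving out RFP+ MHCIIlo replicates 1 and 4 together was added after seeing the data. The scripts were tested on simulated data.

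The 6 genes, the gene lists and the marker lists were chosen with earlier results of these data known. Besides the 6, the rule named Flg, Padi2, Padi4, Uroc1, Amdhd1, Spink5 and St14, and of each list the 2 called genes with the largest log2 difference in RFP+ MHCIIlo minus RFP- MHCIIlo. It also named the 3 genes most like each of the 6 (log2 CPM with a prior count of 2, mean of at least 5 CPM in 1 population). Genes named only for a large log2 difference were picked by that same comparison, so their p-values in it are a description. A listed item is not reported here, and the counts leave it out. Libraries of a population differed from each other by more than counting noise (chi-square per degree of freedom 2.99 to 32.66 over 24 pairs). P-values measure the spread between pools of 12 mice.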

Additional observations from a re-analysis of the deposited data

Results flagged for a closer look

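In RFP- MHCIIlo replicate 1 the level of Asprv1 was 61.76 CPM, above the 44.9 to 47.6 CPM of its fellow libraries. Flg2 was at 1.19 CPM in RFP- MHCIIlo replicate 2, with 0.425 to 0.516 CPM in the others. Padi4 was at 3.76 CPM in RFP- MHCIIhi replicate 1, below the 5.23 to 5.51 CPM of the others, and Hdc at 658.9 CPM in the same library, above the 579.5 to 586.4 CPM of the others. These were the 4 single values that stood apart by Dixon's test among 100 groups of 4 libraries, where chance flags about 1 in 20.

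Blmh differed between the labels in opposite directions in the 2 gates, 0.56 among MHCIIlo cells and -0.28 among MHCIIhi cells, each without overlap of libraries. The gap of 0.84 was not tested, because the gene was chosen with its values known.

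For 14 of the pathway genes named by the rule, the RFP difference in the MHCIIlo gate departed from that in the MHCIIhi gate by edgeR's interaction test with Benjamini-Hochberg adjustment, which called 34.1% of all tested genes. Of these genes 12 were picked for a large RFP difference in the MHCIIlo gate, which is a part of the gap itself, so a gap was favoured by the choice and their values are a description. Among substrates the gap was 1.96 for Flg2 (3.78 against 1.82) and 1.63 for Hrnr (3.54 against 1.91). Among proteases it was 3.69 for Klk5 (3.39 against -0.30) and 2.86 for Klk7 (3.41 against 0.55). The inhibitor Spink5 had the larger difference in the MHCIIhi gate, with a gap of -1.10, and Cst6 the larger in the MHCIIlo gate, with 1.10. For Tgm3 and Tgm5 the gaps were 1.47 and 1.64, for Casp12 -2.36 and for Hdc 2.50. The deiminases gave 0.56 for Padi2 and 1.26 for Padi4. Padi2 was not called in 12 of 23 alternatives, and Padi4 was not called without RFP+ MHCIIlo replicate 4 or without replicates 1 and 4 of that population.

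The 2 genes not picked in that way were Amdhd1 (1.87, adjusted p = 0.0027) and Uroc1 (1.64, adjusted p = 0.027). Uroc1 was not called in 7 of 23 alternatives (adjusted p = 0.009 to 0.15), among them without RFP+ MHCIIlo replicate 4 (0.15).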

How the results depend on the processing

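No result changed to a called difference of the opposite sign in the 25 alternatives. The counts of called pathway genes stayed within 1.5 times their values, except that 6 genes in place of 3 were lower with RFP among MHCIIhi cells when those 2 groups were fitted alone. The count higher with RFP among MHCIIlo cells was as low as 20 in place of 30, at the limit of that range. For Padi3, with 19 reads in the MHCIIlo libraries together, leaving out single libraries gave -0.40 to 1.13 for RFP+ MHCIIlo minus RFP- MHCIIlo, -3.76 to -2.24 for RFP+ MHCIIlo minus RFP+ MHCIIhi and 0.10 to 1.63 for the difference of label differences, the lowest value in each case without RFP+ MHCIIlo replicate 1. Without RFP+ MHCIIlo replicates 1 and 4, an alternative added after seeing the data, Padi1 gave -0.53 for RFP+ MHCIIlo minus RFP+ MHCIIhi and -0.14 for the difference of label differences.

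With mitochondrial ribosomal RNA left out before scaling, mean CPM was higher throughout because the totals were smaller. In RFP- MHCIIhi, RFP- MHCIIlo, RFP+ MHCIIhi and RFP+ MHCIIlo it was 150.5, 10.0, 149 and 80.1 for Hal, 81.7, 80.5, 470.8 and 572 for Asprv1, 15.2, 4.76, 27.01 and 48.3 for Casp14, 4.50, 3.59, 5.26 and 4.60 for Padi1 and 131.5, 108, 109.6 and 154 for Blmh. For Padi3 it was 4.24 in RFP- MHCIIhi and 3.01 in RFP+ MHCIIhi.

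With the replicate number as a block, 29 pathway genes in place of 30 were higher with RFP among MHCIIlo cells, Ftcd losing its call (adjusted p = 0.074). Within RFP- cells Ftcd was not called between the gates with the block (adjusted p = 0.057, range 0.012 to 0.12) and Hrnr was (0.01, range 0.01 to 0.22). The block changed no other call of a gene named by the rule. The labels do not say whether same-numbered libraries share mice. Over 24 same-numbered pairs the correlation of deviations from the population means was -0.019 to 0.129, with 4 over 0.1, and in 17 of 24 cases a library correlated best with its own number, a hint of pairing from the data and not from the design. The cause of these changes was not tested.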
